A study of Homo sapiens with 24 samples.

Results

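The level of 10 immediate early genes, FOS, FOSB, FOSL1, FOSL2, JUN, JUNB, JUND, EGR1, IER2 and IER3, was followed in HT29 cells, an established line from a human colon adenocarcinoma. These genes were taken by name from the annotation of the arrays, which hold 11 probes for them among 50599 probes with 36337 names. All cells were grown in DMEM with fetal calf serum, and each group had 4 samples on 1 array each, which made 24 arrays. Cells were left without treatment (NT) or were exposed for 6 h to 1 of 5 treatments. C3/C2 was a mixture of 30 mM propionate and 15 mM acetate. SN was the diluted culture supernatant of Propionibacterium freudenreichii, a dairy bacterium that releases propionate and acetate, and C3/C2 was made to match the amounts of both acids in it. TRAIL, a ligand of death receptors, was given at 100 ng/ml, together with 2 µg/ml of anti-Flag antibody. TRAIL+C3/C2 and TRAIL+SN were the co-treatments. NT cells received neither acids, nor supernatant, nor TRAIL with its antibody, and no culture received the antibody alone. The comparisons ask how far each treatment moved these genes, whether SN did more than its acids, and whether TRAIL acted differently when the acids or SN were present.

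Immediate early genes are transcribed within minutes of a stimulus without the need for new proteins, through kinase cascades (ERK, JNK and p38) that act on factors already bound at their promoters. FOS and JUN proteins pair through a leucine zipper to form AP-1, a transcription factor that binds the motif TGACTCA. JUN proteins can pair with each other, while FOS proteins need a JUN partner. In epithelial cells AP-1 takes part in proliferation, stress responses and cell death, and the mix of family members in the dimer sets how strongly its targets are transcribed.

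The probes lie, on hg19, at chr14:75748214-75748273 for FOS, chr19:45978205-45978264 for FOSB, chr11:65660098-65660157 for FOSL1, chr2:28637175-28637234 for FOSL2, chr1:59246511-59246570 for JUN, chr19:12902998-12903057 for JUNB, chr19:18391371-18391430 for JUND, chr5:137804891-137804950 for EGR1 and chr19:13265586-13265645 for IER2. IER3 has 2 probes, at chr6:30711312-30711371 and chr6:30711576-30711635, and its values are those of the first, which is brighter, unless stated. The files name the gene of each probe, and its exon or UTR was not assigned here. On each of the 24 arrays all 11 probes were marked as well above background, none of their spots was saturated or marked as an outlier, and their intensities ran from 128 to 53477. A level is the log2 intensity less that of the array's 75th percentile, so that a difference of 1 is a fold change of 2. It is used only within a gene, since probes differ in brightness for the same amount of RNA. A gene was called higher or lower where its level changed 2-fold or more with an adjusted p under 0.05 in a limma fit of all groups, adjusted over 20703 genes.

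Some features of the arrays bear on every value. NT and C3/C2 arrays shared slides 1 and 2, SN and TRAIL arrays shared slide 3, and both co-treatments shared slide 4, so that slide and treatment cannot be told apart in a comparison of SN, TRAIL or a co-treatment with NT. The 75th percentile had a median intensity between 758.85 and 882.65 in NT, C3/C2 and SN, but 662.71 in TRAIL, 502.77 in TRAIL+C3/C2 and 519.74 in TRAIL+SN. Scaling to spike-in control probes in place of the 75th percentile moved the median log2 change of all genes from NT by -0.26 for TRAIL and by -0.67 and -0.52 for its co-treatments with C3/C2 and SN. Among all genes C3/C2 gave 2784 calls of higher and 1279 of lower, which became 2001 and 2346 with the array median. TRAIL+C3/C2 gave 3364 and 1643, which became 1637 and 5507 with spike-in probes, so the split of the background depends on the scaling. The study describes 2 independent experiments, each in duplicate, so that the 4 arrays of a group stand for 2 experiments, and the labels do not say which replicate numbers are duplicates. The fit takes the 4 arrays as separate samples, and its p-values measure the spread between these arrays, which may in part be technical. All 10 colon epithelium markers, such as EPCAM, KRT8 and VIL1, lay well above background on all arrays. On all NT arrays so did 5 of 11 markers of leukocytes, fibroblasts and endothelium, and 7 did with each treatment that held acids. The tissue label fits the levels of both lists. In NT the summed intensity relative to the 75th percentile was 766.5 to 850 for the former and 1.75 to 2.27 for the latter.

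The promoters of these genes are shown first, as background, and a link between their sequence and the responses was not tested. RefSeq start sites on GRCh38.p14 were found for 8 of 10 genes (FOSL1 and IER3 were not matched). The windows below hold the 210 bases before the start of FOS, FOSB, JUN, JUND and EGR1, from 5′ to 3′ on the strand of the gene. Capitals mark TGACG or its reverse complement CGTCA, which is one side of the cAMP response element that CREB and ATF proteins bind, the full element TGACGTCA, the variant TGACATCA, the TATA box TATAAA, and the CArG box, the site of serum response factor.
FOS, chr14:75278618-75278827, plus strand: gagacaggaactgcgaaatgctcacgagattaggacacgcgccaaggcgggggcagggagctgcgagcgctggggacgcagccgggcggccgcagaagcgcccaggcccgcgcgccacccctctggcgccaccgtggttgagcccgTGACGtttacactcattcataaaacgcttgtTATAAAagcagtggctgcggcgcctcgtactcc
FOSB, chr19:45467786-45467995, plus strand: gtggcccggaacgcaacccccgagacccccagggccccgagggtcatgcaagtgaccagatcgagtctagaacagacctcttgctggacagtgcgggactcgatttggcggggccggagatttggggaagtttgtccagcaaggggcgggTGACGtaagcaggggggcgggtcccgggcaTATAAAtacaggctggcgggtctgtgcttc
JUN, chr1:58784048-58784257, minus strand: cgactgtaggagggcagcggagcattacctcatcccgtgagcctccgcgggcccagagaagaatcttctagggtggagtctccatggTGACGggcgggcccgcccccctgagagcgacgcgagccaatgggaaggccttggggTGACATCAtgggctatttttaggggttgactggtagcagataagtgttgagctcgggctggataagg
JUND, chr19:18281623-18281832, minus strand: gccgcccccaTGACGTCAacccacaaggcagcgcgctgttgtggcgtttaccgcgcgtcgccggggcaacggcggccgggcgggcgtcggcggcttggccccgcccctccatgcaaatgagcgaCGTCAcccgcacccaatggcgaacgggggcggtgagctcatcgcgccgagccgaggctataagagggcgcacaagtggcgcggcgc
EGR1, chr5:138465269-138465478, plus strand: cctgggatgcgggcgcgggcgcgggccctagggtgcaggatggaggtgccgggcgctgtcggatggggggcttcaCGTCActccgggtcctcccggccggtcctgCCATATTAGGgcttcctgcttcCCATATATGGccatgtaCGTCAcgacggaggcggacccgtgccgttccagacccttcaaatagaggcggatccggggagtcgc
In windows that run from 250 bases before to 50 bases after the start, TGACG was present on either strand in 8 of 8 of these genes, against 24.6% of 35116 promoters. It lay 64 to 60 bases before the start in FOS and 60 to 56 in FOSB, upstream of TATAAA in both. TATAAA was present in FOS, FOSB and JUNB, against 11.5% of promoters. Within this window the CArG box was found only in EGR1, at 105 to 96 and at 83 to 74 bases before the start, against 1.29% of promoters. The full element TGACGTCA was found only in JUND, at 200 to 193 bases before the start, where it contains 2 of the TGACG matches, against 1.85% of promoters. TGACATCA, a variant of the AP-1 motif, was searched as the site of JUN. It was found only in JUN, at 67 to 60 bases before the start, against 2.61% of promoters. Since the pattern was chosen for JUN, its match there was no test. The AP-1 motif itself, searched as TGACTCA or TGAGTCA, was found only in FOSL2, after the start, against 4.95%. These matches are letters in a fixed window, and binding was not measured. Sequence farther from the start was not searched, so a motif missing here may lie outside the window.

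**Figure D1:**
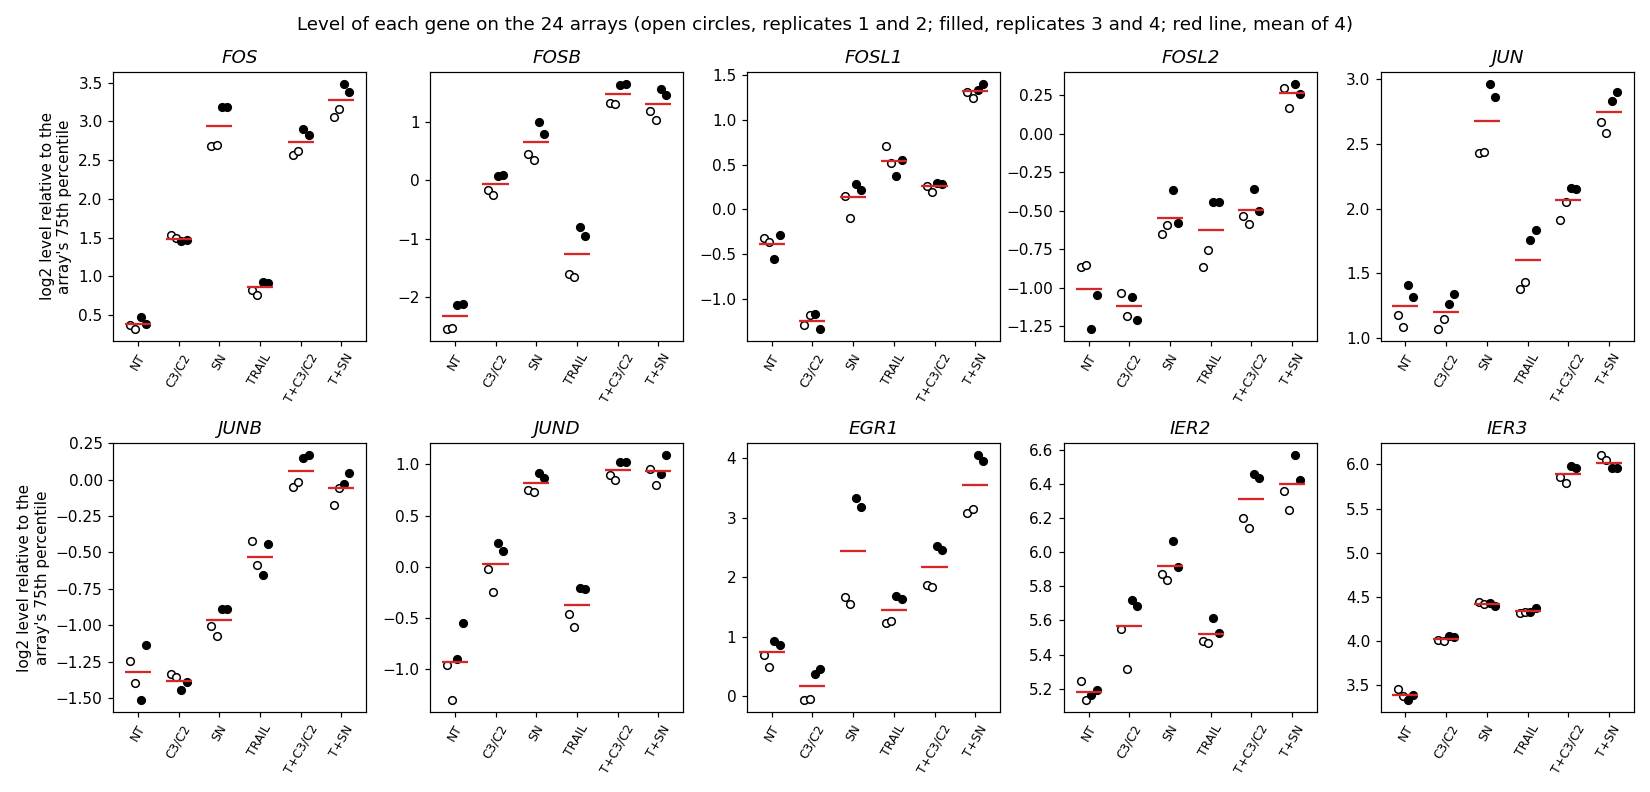
Log2 level of each gene against the array's 75th percentile (y axis) in the 6 groups (x axis, where T stands for TRAIL), with 1 point per array and a red line at the mean of 4 arrays. FOS, FOSB and IER3 lie above NT on every treated array, FOSL1 lies below NT only with C3/C2, and replicates 3 and 4 (filled) lie above replicates 1 and 2 (open) in all 6 groups for FOSB, JUN and EGR1.

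FOS, the founding partner of AP-1, was higher than in NT on every treated array. The NT arrays lay at log2 levels of 0.37, 0.33, 0.47 and 0.38, the C3/C2 arrays at 1.53, 1.49, 1.45 and 1.46, and the SN arrays at 2.69, 2.69, 3.19 and 3.18. The TRAIL arrays lay at 0.83, 0.76, 0.92 and 0.91, the TRAIL+C3/C2 arrays at 2.57, 2.62, 2.90 and 2.83, and the TRAIL+SN arrays at 3.06, 3.16, 3.48 and 3.38. In order, NT, TRAIL, C3/C2 and TRAIL+C3/C2 did not overlap, and neither did the co-treatments, while SN overlapped both co-treatments. FOS rose by 1.10 on the log2 scale with C3/C2 and 2.55 with SN, and the co-treatments gave 2.34 (with C3/C2) and 2.88 (with SN), the last a 7.37-fold change (standard error 0.11, adjusted p 2.24e-08 or lower). With TRAIL alone its log2 change was 0.47 (adjusted p 0.00283), which was not called. The rise with C3/C2 was 1.08 on slide 2 alone and 1.16 between the 2 arrays of slide 1. It was not called with the array median (0.80) or spike-in probes (0.96) in place of the 75th percentile.

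FOSB, which forms AP-1 like FOS, had intensities of 128 to 231 in NT, well above background. It had the largest changes of the 10 genes in each of the 5 comparisons with NT. The NT arrays lay at -2.54, -2.52, -2.13 and -2.12 and the TRAIL arrays at -1.61, -1.65, -0.80 and -0.96. The C3/C2 arrays lay at -0.16, -0.24, 0.07 and 0.08 and the SN arrays at 0.46, 0.36, 0.99 and 0.79. With TRAIL+C3/C2 the levels were 1.32, 1.31, 1.63 and 1.65, and with TRAIL+SN 1.18, 1.03, 1.57 and 1.47. NT, TRAIL, C3/C2 and SN followed each other without overlap, and both co-treatments lay above SN and overlapped each other. The log2 change from NT was 1.07 with TRAIL, 2.26 with C3/C2 and 2.98 with SN, and reached 3.81 and 3.64 in the co-treatments with C3/C2 and SN (standard error 0.19, adjusted p 0.000174 or lower), the former being a 13.98-fold change. The call with TRAIL was lost without TRAIL replicate 3 (0.92) or replicate 4 (0.97), with spike-in probes (0.81) and with normexp background correction (0.87).

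FOSL1 and FOSL2 encode FRA1 and FRA2, FOS relatives that lack the transactivation domain of FOS, and their order of levels was not that of FOS. FOSL1 was the only member whose level with C3/C2 lay below that of NT past the adjusted p. The NT arrays lay at -0.31, -0.37, -0.55 and -0.28, and the C3/C2 arrays at -1.28, -1.17, -1.16 and -1.32. The SN arrays lay at 0.15, -0.10, 0.28 and 0.22, the TRAIL arrays at 0.71, 0.51, 0.37 and 0.55, and the TRAIL+C3/C2 arrays at 0.27, 0.19, 0.30 and 0.28. TRAIL+SN gave the highest levels, at 1.30, 1.25, 1.33 and 1.40, and no group overlapped its neighbours in this order except SN and TRAIL+C3/C2. The log2 change from NT was -0.86 with C3/C2 (standard error 0.08, adjusted p 6.17e-09), which was -0.82 within slide 2, and which reached a call of lower (-1.16) with the array median. It was 0.52 with SN, 0.91 with TRAIL and 0.64 with TRAIL+C3/C2, none of which was called, and 1.70 with TRAIL+SN, which was called (adjusted p 7.54e-14). With the array median FOSL1 was also called with TRAIL (1.01), and with spike-in probes its change with TRAIL+C3/C2 was -0.03.

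FOSL2 had log2 changes from NT between -0.11 and 0.51 in every group but TRAIL+SN. The NT arrays ran from -1.27 to -0.85, and the arrays of C3/C2, SN, TRAIL and TRAIL+C3/C2 ran from -1.21 to -0.36. The TRAIL+SN arrays lay at 0.30, 0.17, 0.32 and 0.26, above all other arrays. FOSL2 rose by 1.27 with TRAIL+SN (standard error 0.10, adjusted p 2.98e-10), a value that was 0.75 and not called with spike-in probes. With C3/C2 its log2 change was -0.11 (95% confidence interval -0.32 to 0.10).

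JUN, a partner of FOS proteins, was called higher with SN and TRAIL+SN and in no other group. The NT arrays lay at 1.17, 1.09, 1.41 and 1.32 and the C3/C2 arrays at 1.07, 1.14, 1.26 and 1.34, and the groups overlapped. The SN arrays lay at 2.43, 2.44, 2.96 and 2.86 and the TRAIL+SN arrays at 2.67, 2.58, 2.83 and 2.90. The TRAIL arrays, between 1.38 and 1.83, overlapped NT, and the TRAIL+C3/C2 arrays, between 1.91 and 2.16, lay between TRAIL and SN. JUN rose by 1.43 with SN (standard error 0.13, adjusted p 1.87e-09) and by 1.503 with TRAIL+SN (adjusted p 7.60e-10). The log2 change with C3/C2 was -0.04, with a 95% confidence interval from -0.31 to 0.22, and with TRAIL+C3/C2 it was 0.82, which was not called. With spike-in probes the change with TRAIL+SN was 0.98 and not called.

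JUNB and JUND, the other JUN proteins, of which JUNB is a weak activator that can oppose JUN, are taken in turn. JUNB ran from -1.51 to -1.14 in NT, from -1.45 to -1.33 with C3/C2 and from -1.08 to -0.89 with SN. It lay higher with TRAIL, from -0.66 to -0.42, and highest with TRAIL+C3/C2 (-0.05, -0.02, 0.15 and 0.17) and TRAIL+SN (-0.18, -0.06, -0.03 and 0.05), which overlapped. The TRAIL arrays of JUNB lay above all SN and C3/C2 arrays, as those of FOSL1 did. Against NT these were rises of 1.39 and 1.27 (standard error 0.08), values that were 0.71 and 0.74 and not called with spike-in probes. The log2 change with TRAIL alone was 0.80 (adjusted p 2.40e-07), which was not called. JUND, in contrast, lay at -0.96, -1.30, -0.90 and -0.55 in NT and at -0.02, -0.25, 0.23 and 0.16 with C3/C2. The SN arrays ran from 0.74 to 0.91, the TRAIL+C3/C2 arrays from 0.85 to 1.03 and the TRAIL+SN arrays from 0.80 to 1.09, and these groups overlapped. JUND rose by 1.74 with SN and by 1.87 with either co-treatment (standard error 0.13), and its log2 change with C3/C2 was 0.96 (adjusted p 1.12e-06), below the fold required. It was called with C3/C2 without NT replicate 4 (1.08) or without C3/C2 replicate 2 (1.05).

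EGR1, a zinc finger factor that ERK and serum response factor induce, was the member with the widest spread between replicates. The SN arrays lay at 1.67, 1.56, 3.33 and 3.17, so that replicates 1 and 2 overlapped the TRAIL arrays (1.23, 1.26, 1.69 and 1.63) and replicates 3 and 4 overlapped the TRAIL+SN arrays (3.07, 3.14, 4.05 and 3.95). The NT arrays lay at 0.69, 0.50, 0.93 and 0.86 and the C3/C2 arrays at -0.06, -0.05, 0.38 and 0.46, all below NT. The TRAIL+C3/C2 arrays lay at 1.87, 1.83, 2.52 and 2.46, between C3/C2 and TRAIL+SN. EGR1 rose by 1.69 with SN (standard error 0.33, adjusted p 0.000126), and by 1.43 and 2.81 in the co-treatments with C3/C2 and SN (adjusted p 0.000692 and 1.63e-07). The TRAIL+C3/C2 call was lost with spike-in probes (0.75). With C3/C2 the log2 change was -0.56 (adjusted p 0.149), while in the fit of NT and C3/C2 alone with slide as a block its adjusted p was 0.0107, and on slide 2 alone the change was -0.50 (adjusted p 0.0468).

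IER2 and IER3 are small immediate early genes without a leucine zipper, and IER3 is a target of NF-kB that acts on cell survival. IER2 ran from 5.14 to 5.24 in NT, from 5.31 to 5.72 with C3/C2, from 5.47 to 5.62 with TRAIL and from 5.84 to 6.07 with SN. With TRAIL+C3/C2 it ran from 6.14 to 6.46 and with TRAIL+SN from 6.24 to 6.57, and it rose by 1.13 and 1.21 (standard error 0.09). Both calls were lost with spike-in probes (0.45 and 0.69), and that with TRAIL+C3/C2 also with the array median (0.78) and quantile normalization (0.92). IER3 had the tightest replicates of the 10 genes. Its NT arrays lay at 3.45, 3.38, 3.34 and 3.39, its C3/C2 arrays at 4.01, 4.00, 4.06 and 4.04 and its SN arrays at 4.44, 4.42, 4.43 and 4.40. With TRAIL the levels were 4.32, 4.33, 4.33 and 4.37, with TRAIL+C3/C2 5.86, 5.79, 5.98 and 5.96, and with TRAIL+SN 6.10, 6.05, 5.96 and 5.96. The 4 groups NT, C3/C2, TRAIL and SN followed each other without overlap, and the co-treatments, which overlapped each other, lay above all of them. IER3 rose by 1.03 with SN and by 2.51 and 2.63 in the co-treatments with C3/C2 and SN (standard error 0.05), and its log2 change was 0.64 with C3/C2 and 0.95 with TRAIL, just under the fold required. The second probe gave 1.14, 2.61 and 2.66 for the former and 1.06 for TRAIL (adjusted p 2.61e-10), which was past it. The call with SN was lost with the array median (0.91) and quantile normalization (0.99).

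**Figure D2:**
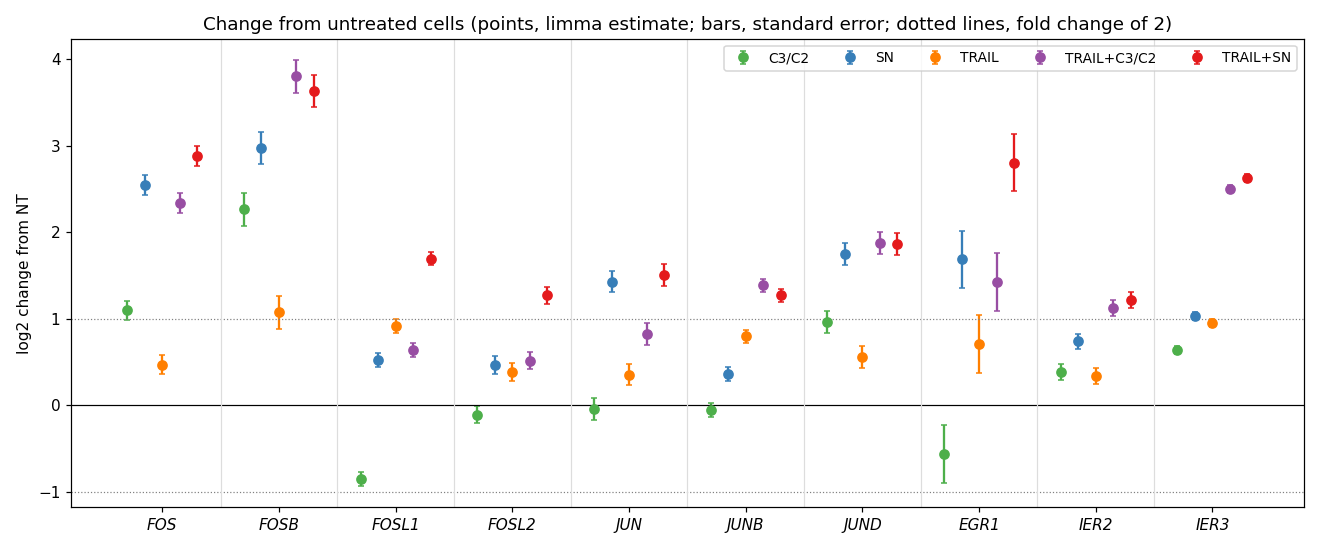
Log2 change from NT (y axis) of each gene (x axis) in the limma fit for the 5 treatments (colours), with bars for the standard error and dotted lines at a fold change of 2. With TRAIL+SN all 10 genes lie above the upper dotted line, and with TRAIL alone only FOSB does.

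Counted over the 10 genes, 2 were called higher with C3/C2 (FOS and FOSB), against 13.4% of all genes tested, which is near the background. With SN 6 were called higher (FOS, FOSB, JUN, JUND, EGR1 and IER3), against 14.2%. With TRAIL 1 was called (FOSB), against 0.749%, and at any fold change 9 of 10, all but EGR1, were higher past the adjusted p, against 20.3%. With TRAIL+C3/C2 7 were called higher (all but FOSL1, FOSL2 and JUN), against 16.2%, and with TRAIL+SN 10 of 10, against 16.1%. None was called lower in these comparisons, in which the share of all genes called lower was 6.18% (C3/C2), 9.75% (SN), 2.18% (TRAIL), 7.94% (the co-treatment with C3/C2) and 10.1% (that with SN). In the same order, the median log2 change of the 10 genes was 0.17, 1.23, 0.63, 1.41 and 1.78, and that of all genes tested was 0.08, -0.02, 0.03, 0.10 and 0.04. With spike-in probes 1 member was called with C3/C2 and 0 with TRAIL, and the co-treatments had 4 (with C3/C2) and 6 (with SN). Over all 20703 genes that scaling gave 2368, 84, 1637 and 1871 calls of higher in these comparisons, against 2784, 155, 3364 and 3323 before.

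SN and C3/C2 contained both acids in matched amounts, and the direct comparison shows where SN gave more. The level was higher with SN in all 10 genes at any fold change, against 21.7% of all genes. Called higher with SN were 4 genes, FOS (1.45), FOSL1 (1.37), JUN (1.47) and EGR1 (2.25), against 1.28%. The 95% confidence intervals of these differences were 1.22 to 1.69 for FOS, 1.21 to 1.54 for FOSL1, 1.21 to 1.74 for JUN and 1.55 to 2.95 for EGR1. For FOSL1 and JUN, C3/C2 alone lay below or at the level of NT, and SN lay above it. The smallest difference was that of IER2, 0.36 (0.17 to 0.54). SN and C3/C2 arrays lay on different slides, so that slide cannot be told apart from the treatment here.

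Both co-treatments lay on 1 slide, and there the same contrast gave fewer calls. TRAIL+SN was called higher than TRAIL+C3/C2 for 2 of 10 genes, FOSL1 (1.06, standard error 0.08, adjusted p 3.69e-09) and EGR1 (1.38, standard error 0.33, adjusted p 0.00247), against 0.976% of all genes. The EGR1 arrays of the groups did not overlap, but its call was lost when replicates 1 and 2 and replicates 3 and 4 were averaged before the fit (adjusted p 0.0928), an alternative chosen after seeing the data. The FOSL1 difference fell to 0.99 with normexp background correction. FOS (0.54), FOSL2 (0.76), JUN (0.68) and IER3 (0.12) were higher past the adjusted p without reaching the fold, but the second IER3 probe gave 0.05 (adjusted p 0.559). The differences of FOSB (-0.17, interval -0.56 to 0.23), JUNB (-0.12, -0.28 to 0.05), JUND (-0.01, -0.28 to 0.26) and IER2 (0.09, -0.10 to 0.28) had intervals that included 0, and the signs for JUNB and JUND turned with the array median (0.04 and 0.15) and with spike-in probes (0.03 and 0.14). Whether the SN contrast differed between cells with and without TRAIL was not tested.

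SN and TRAIL arrays also shared a slide. SN was called higher for 4 of 10 genes, FOS (2.08), FOSB (1.90), JUN (1.08) and JUND (1.19), against 13.1% of all genes. JUN was not called without SN replicate 3 (0.98), and EGR1, at 0.98, was called without SN replicate 1 (1.23), SN replicate 2 (1.27), TRAIL replicate 3 (1.06) or TRAIL replicate 4 (1.04). TRAIL was higher than SN, past the adjusted p, for FOSL1 (-0.40) and JUNB (-0.44). With the array median the count was 2, since JUN (0.85) and JUND (0.96) were no longer called.

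**Figure D3:**
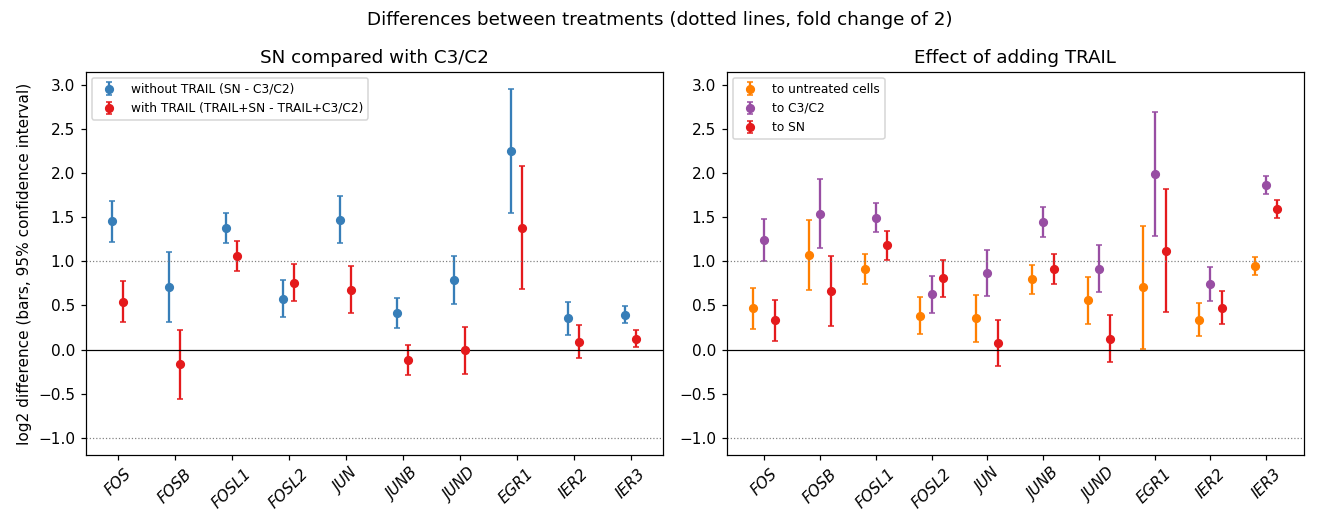
Log2 difference (y axis) of each gene (x axis) between SN and C3/C2, without and with TRAIL (left), and the effect of adding TRAIL to untreated cells, to C3/C2 or to SN (right), with 95% confidence intervals from the limma fit. FOSL1 and EGR1 exceed a fold change of 2 in both contrasts on the left, and on the right the effect of TRAIL on IER3 is 0.95 in untreated cells, 1.87 on C3/C2 and 1.59 on SN.

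Adding the acids to TRAIL raised 4 of 10 genes past the call, FOS, FOSB, JUND and IER3, against 14.8% of all genes, and adding SN to TRAIL raised these 4 with JUN and EGR1, that is 6 of 10, against 14.3%. The differences from TRAIL were 1.87 and 2.41 for FOS, 2.73 and 2.57 for FOSB, 1.32 and 1.31 for JUND and 1.56 and 1.68 for IER3, with the acids and with SN, and with SN they were 1.15 for JUN and 2.10 for EGR1. JUND with the acids (0.87 and 0.90) and JUN with SN (0.86 and 0.88) were not called with the array median and with spike-in probes. Read the other way, adding TRAIL to C3/C2 gave calls for 6 of 10 genes, FOS (1.24), FOSB (1.54), FOSL1 (1.496), JUNB (1.44), EGR1 (1.99) and IER3 (1.87), against 1.59%, and all 10 were higher at any fold change, against 21.3%. With spike-in probes 3 of these 6 calls were left, those of FOSB, EGR1 and IER3, while FOS had 0.71, FOSL1 0.97 and JUNB 0.91. Adding TRAIL to SN gave calls for 3 of 10 genes, FOSL1 (1.18), EGR1 (1.12) and IER3 (1.59), against 0.908%, and 8 were higher at any fold change, against 12.2%. JUN (0.07, interval -0.19 to 0.34) and JUND (0.12, interval -0.14 to 0.39) did not pass, and had negative differences with spike-in probes (-0.49 and -0.44). Of the 8 genes that passed, FOS (0.33) and IER2 (0.48) also turned negative there (-0.23 and -0.0837). The EGR1 call rested on single arrays, since it was lost without SN replicate 1 (0.87), SN replicate 2 (0.83), TRAIL+SN replicate 3 (0.96) or TRAIL+SN replicate 4 (0.99). With the replicates averaged as above its adjusted p was 0.256. With spike-in probes IER3 alone was called, since FOSL1 fell to 0.62 and EGR1 to 0.56. These groups lay on different slides.

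The interaction, which is the log2 change with a co-treatment less those with each of its parts alone, tests whether TRAIL did more in the presence of the acids. No member reached a fold change of 2 in it with an adjusted p under 0.05, against 0.493% of all genes where the acids were the partner and 2.76% where SN was. At any fold change, 4 of 10 were positive past the adjusted p for TRAIL and C3/C2, against 1.74%. They were IER3 (0.92, standard error 0.07, adjusted p 3.03e-08), FOS (0.78, adjusted p 0.00771), JUNB (0.65, adjusted p 0.00208) and FOSL1 (0.58, adjusted p 0.00541). For TRAIL and SN there were 2 of 10, IER3 (0.65, adjusted p 2.15e-06) and FOSL2 (0.43, adjusted p 0.0345), against 11%, which is near the background. For IER3 the 4 differences from NT of the same replicate number ran from 2.41 to 2.64 with TRAIL+C3/C2, against 0.56 to 0.72 with C3/C2 and 0.87 to 0.99 with TRAIL. EGR1 had the largest estimate for TRAIL and C3/C2, 1.28, but its standard error was 0.47 and its adjusted p 0.166. This call depends on the fit, since the adjusted p was 0.00892 with the replicate number as a block and 0.0192 in a fit of the groups compared alone, which would call EGR1, and 0.724 with replicates 1 and 2 and replicates 3 and 4 averaged. Except for IER3, these results depend on the scaling or on how replicates are treated, and the arrays of 4 slides enter each of them.

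**Figure D4:**
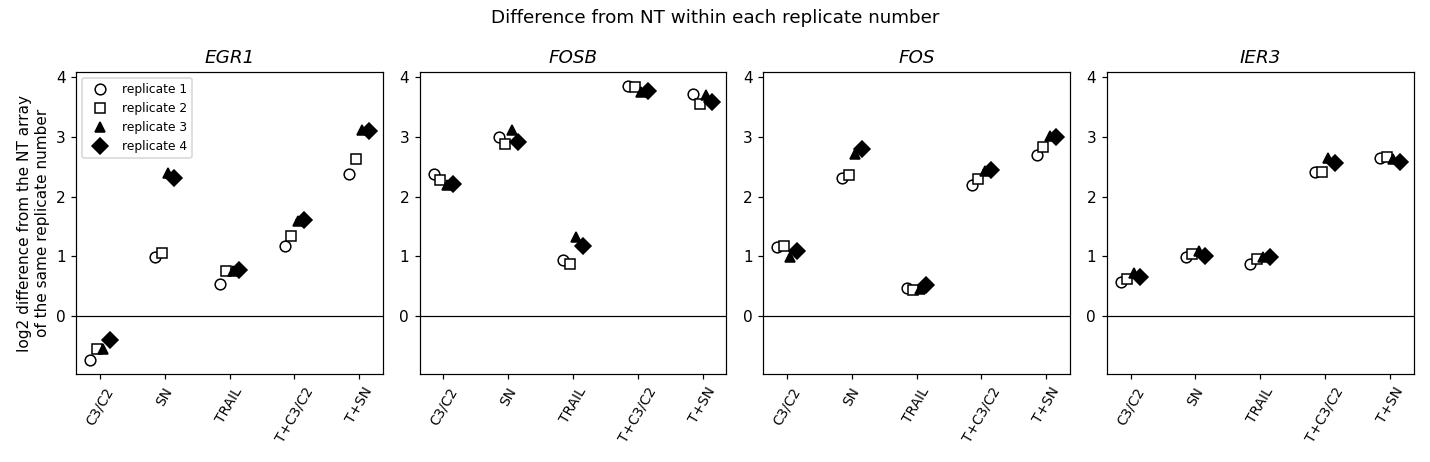
Log2 difference between a treated array and the NT array of the same replicate number (y axis) for EGR1, FOSB, FOS and IER3 in the 5 treatments (x axis, where T stands for TRAIL), with 1 symbol per replicate number. For EGR1 with SN, replicates 1 and 2 lie at 0.98 and 1.05 and replicates 3 and 4 at 2.39 and 2.31, while the 4 replicates of IER3 lie close together in every treatment.

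The spread within groups had a pattern. Replicates 3 and 4 both lay above replicates 1 and 2 in 6 of 6 groups for FOSB, JUN and EGR1, in 5 of 6 for FOS, JUND and IER2, in 3 for FOSL1, FOSL2 and JUNB, and in 2 for IER3. Both lay below replicates 1 and 2 in 1 of 6 groups for FOS, FOSL2, JUNB and IER3. For FOSB, NT shared the shift. Its differences from the NT array of the same number were closer together, at 3.00, 2.88, 3.12 and 2.91 with SN. For EGR1 with SN these differences were 0.98, 1.05, 2.39 and 2.31, which still split between the pairs. For FOSL2 the mean of replicates 3 and 4 less that of 1 and 2 was -0.30 in NT but 0.37 with TRAIL. Its differences with TRAIL, 0.0024, 0.10, 0.83 and 0.61, were therefore split more widely than its levels. FOSL2 passed the adjusted p with TRAIL (0.38, adjusted p 0.0056), but not with the pairs averaged (0.111) or with spike-in probes (0.12, adjusted p 0.349). The mean EGR1 difference with SN was 1.02 over replicates 1 and 2 and 2.35 over replicates 3 and 4, while those of FOS were 2.34 and 2.75. For TRAIL+SN the EGR1 differences were 2.38, 2.64, 3.11 and 3.09, and for TRAIL they were 0.54, 0.76, 0.75 and 0.77. What separates the pairs was not tested.

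The pathway genes around these members were described from lists, with counts of genes called against NT. Values over the 5 treatments stand in the order of the plots, first C3/C2, then SN, then TRAIL alone, then the co-treatment with C3/C2 and last that with SN. In this order 13.4%, 14.2%, 0.749%, 16.2% and 16.1% of all genes were called higher and 6.18%, 9.75%, 2.18%, 7.94% and 10.1% lower, against which the list counts are read. Of 20 genes of the ERK and serum response factor arm, all tested, 1 was higher and 2 were lower with C3/C2 and with SN, none with TRAIL, 2 and 2 with TRAIL+C3/C2, and 1 and 2 with TRAIL+SN. Those lower were ARAF, a RAF kinase (-1.26 with C3/C2, -1.48 with SN and 0.19 with TRAIL), and SPRY2, an inhibitor of growth factor signalling (-1.53, -1.37 and -0.25). MKL1, a coactivator of serum response factor, was higher with all treatments that held acids (1.10 to 1.24). RPS6KA1, a kinase downstream of ERK, was called only with TRAIL+C3/C2 (1.05). It lay under the fold required with C3/C2 (0.75), SN (0.91) and TRAIL+SN (0.89), all past the adjusted p. Of 15 genes of the JNK and p38 arm, 14 were tested, of which 2, 3, 0, 3 and 3 were higher over the 5 treatments and 1, 0, 0, 2 and 1 lower, which is near the share of all genes. MAPK11, the p38 beta kinase, rose by 2.84, 2.79, 3.09 and 2.95 with the treatments that held acids, against a log2 change of 0.41 with TRAIL. MAP2K3, which activates p38, rose by 1.499 with SN and by 1.60 and 1.98 in the co-treatments with C3/C2 and SN. Its changes with C3/C2 (0.71) and TRAIL (0.77) were not called. MAP2K6 was called lower with TRAIL+C3/C2 (-1.17) and TRAIL+SN (-1.47). With C3/C2 (-0.53), SN (-0.96) and TRAIL (-0.84) it passed the adjusted p only. MAPK12 was called higher with C3/C2 (1.05) and TRAIL+C3/C2 (1.24), but not with SN (0.85), TRAIL (0.28) or TRAIL+SN (0.29).

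Other bZIP proteins, which can pair with members of AP-1, were also measured. Of 13 genes, all tested, 2, 5, 1, 5 and 6 were higher over the 5 treatments, and none lower. ATF3, a stress-induced factor that pairs with JUN, had log2 changes of 0.76, 3.78, 0.79, 1.91 and 4.46 in that order. Like JUN and EGR1, it was called higher with SN than with C3/C2 in the direct comparison. MAFF had log2 changes of -0.02, 1.26, 0.93, 1.43 and 2.00. BATF3, the partner that was called with TRAIL, had 2.06, 2.79, 1.06, 2.51 and 2.70.

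Of 25 further immediate early genes 22 were tested. Over the 5 treatments 11, 11, 0, 13 and 15 were higher (of all genes 13.4%, 14.2%, 0.749%, 16.2% and 16.1%), and 1, MYC, was lower in each treatment that held acids. The same 11 genes were higher with C3/C2 and with SN, both compared with the same NT arrays. The median log2 change of the list was 0.92, 1.12, 0.33, 1.42 and 1.59. NR4A3, an orphan nuclear receptor, was above background on no NT or TRAIL array, and was at least 7.77-fold, 12.2-fold, 8.86-fold and 12.8-fold higher with the 4 treatments that held acids. GEM, a small GTPase, rose by 3.89, 4.12, 4.50 and 4.62 and ARC by 2.62, 3.52, 4.25 and 4.06 with these treatments. EGR2, a relative of EGR1, rose by 1.29, 2.78, 2.40 and 3.38.

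Of 21 genes known as AP-1 targets 17 were tested, and 5, 8, 2, 8 and 10 were called higher over the 5 treatments (of all genes, the same shares as above), none lower. Some of these genes have other regulators as well. IL8, a chemokine that NF-kB also drives, was at background on every array of NT, C3/C2 or SN, and TRAIL raised it at least 11-fold, while the co-treatments raised it at least 54.1-fold (with C3/C2) and 99.7-fold (with SN). HBEGF, a ligand of the EGF receptor, rose by 1.46, 2.89, 2.24 and 3.23 with the treatments that held acids, and IL11 by 2.65, 3.62, 3.15 and 4.10.

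The genes whose 5 log2 changes from NT lay closest to those of a member were found by the root mean square distance over the 5 comparisons. The search covered genes tested whose names RefSeq lists as protein-coding, without names that start with LOC and without the members. FOS was closest to VEGFA (0.24), RHOB (0.25) and EGR2 (0.26), and FOSB to DUSP10 (0.28), DUSP5 (0.29) and PPP1R14D (0.32). EGR1 was closest to EREG (0.34), GDF15 (0.34) and PPP1R15A (0.39), and JUN to LRRN4CL (0.18), SPTBN1 (0.18) and S100P (0.22). For FOSL1 they were SHH (0.34), ANKRD30BL (0.36) and ZFP36 (0.39), and for FOSL2 ERVMER34-1 (0.12), LSP1 (0.14) and CAPN8 (0.16). The nearest to JUNB were BTBD19 (0.20), CCNL1 (0.22) and C6orf141 (0.23), and to JUND GIT1 (0.13), IRGQ (0.17) and CORO7 (0.17). For IER2 they were VGF (0.11), VDR (0.12) and KCNJ14 (0.12), and for IER3 EID3 (0.32), IRF1 (0.35) and ZSWIM4 (0.40). Among the members themselves, the closest pair was JUNB with IER2 (0.35), and FOSB was the farthest from any other member (0.96, to FOS). These distances describe the 5 comparisons, which share the NT arrays.

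Markers of cells other than colon epithelium were measured beside these results, since they moved with the same treatments. Of 11 markers of leukocytes, fibroblasts and endothelium 7 were tested, and 3, 4, 0, 3 and 4 were called higher over the 5 treatments. The shares of all genes were 13.4%, 14.2%, 0.749%, 16.2% and 16.1%. COL1A1 was above background on no NT or TRAIL array and was at least 19.8-fold higher than NT with C3/C2 and 36.1-fold with SN. PECAM1 rose by 1.66 and 1.30 with C3/C2 and SN, and CD14 by 1.16 with SN. The summed level of the 11 markers, as intensity relative to the 75th percentile, ran from 1.75 to 2.27 in NT and from 1.63 to 2.26 with TRAIL, against 3.79 to 4.62 with C3/C2 and 4.43 to 5.67 with SN. It ran from 3.87 to 4.97 with TRAIL+C3/C2 and from 4.50 to 6.11 with TRAIL+SN. Other defining markers of the same cell types, COL1A2 and DCN of fibroblasts, stayed at background on all 24 arrays. Their part in the results above was not tested. Of the 10 colon epithelium markers, CDX2 (1.26), CDH17 (1.11) and CDH1 (1.07) were called higher with SN, against 14.2% of all genes. None was called with C3/C2 or TRAIL. Their summed level ran from 766.5 to 850 in NT, from 720.8 to 802.7 with C3/C2 and from 749.4 to 864.4 with SN. It ran from 1014 to 1123 with TRAIL, from 1041 to 1065 with TRAIL+C3/C2 and from 996.2 to 1026 with TRAIL+SN.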

How the data were processed

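RNA of 24 HT29 samples, 4 in each of 6 groups, was hybridised to 1-colour Agilent arrays. The deposited scanner files hold intensity values that, per the file headers, were extracted with Agilent Feature Extraction 10.7.3.1, together with other columns of flags for background, saturation and outliers. The authors also deposited a normalized table, which equals the intensity over the median of the array (largest relative deviation 8.5e-06) and was used as an alternative. The authors' own comparison software was not used here.

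Processed intensities were taken as log2, outlier spots were left out, replicate spots were averaged, and each array's 75th percentile was subtracted. Of 50599 probes, 27957 were kept, each marked as well above background on every array of at least 1 group. A gene with several probes was represented by that with the highest mean. A model of 6 group means was fitted with limma 3.58.1 in R 4.3.3 (18 residual degrees of freedom), with Benjamini-Hochberg adjustment over 20703 genes. The number of arrays limits the precision. Interactions were contrasts of this fit. The scripts were tested on simulated data.

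Samples were grouped by the labels. The members and gene lists were chosen with earlier results of these data known. Named in the text were all members, and from each list up to 4 called genes with the largest absolute log2 change from NT in any treatment. For each member the 3 protein-coding genes nearest to it by root mean square distance were also named, other members left out. MYC, outside this rule, was named after its values were seen. Some genes that the rule selects are not reported here. Promoters came from RefSeq tables. Alternatives were the array median, spike-in probes, quantile normalization, normexp (offset 50), the authors' table, other filters and probe rules, blocks for replicate number and slide, and leaving out each array.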

Additional observations from a re-analysis of the deposited data

Results flagged for a closer look

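The effect of TRAIL differed between cells with and without the acids for 4 members in a test of the interaction (limma, adjusted over all genes). IER3 had an interaction of 0.92 on the log2 scale (standard error 0.07, adjusted p 3.03e-08), which ran from 0.65 to 0.95 over 29 alternatives with an adjusted p of at most 0.0251. FOS had 0.78 (standard error 0.16, adjusted p 0.00771), which ran from 0.50 to 0.83 over 28 alternatives and missed the threshold in 4 of them, with an adjusted p of up to 0.419. JUNB had 0.65 (standard error 0.11, adjusted p 0.00208; 0.38 to 0.71 over 28 alternatives) and FOSL1 had 0.58 (standard error 0.11, adjusted p 0.00541; 0.31 to 0.66). Both missed the threshold in 2 alternatives, with spike-in probes and with replicates 1 and 2 and replicates 3 and 4 averaged.

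Between cells with and without SN the effect of TRAIL differed for IER3, by 0.65 (standard error 0.07, adjusted p 2.15e-06; 0.34 to 0.68 over 29 alternatives, adjusted p at most 0.0498), and for FOSL2, by 0.43 (standard error 0.14, adjusted p 0.0345). The FOSL2 value ran from 0.12 to 0.51 and missed the threshold in 16 of 28 alternatives. All these contrasts combine arrays of different slides, so that slide and treatment cannot be told apart.

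In 66 groups of 4 arrays examined for a single array far from the others (Dixon's ratio), none was found. Where the arrays fall in close pairs, as for EGR1 with SN, this ratio cannot flag any array, so it says nothing there.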

How the results depend on the processing

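Slide as a random block, and both other filters on dim probes, changed no call among 140 values of the 10 genes in 14 comparisons. The correlation used for the slide block was 0.0256. In comparisons across slides this block cannot separate slide from treatment, so it does not test for a slide effect there. With the array median or the authors' values 123 of 140 kept their direction and call, with spike-in probes 110, with quantile normalization 138 and with normexp 137. The number of members called became 3 for TRAIL against NT and 2 for SN against TRAIL with the array median and with the authors' table. With spike-in probes it became 1 (C3/C2), 0 (TRAIL), 4 (TRAIL+C3/C2) and 6 (TRAIL+SN) against NT, 3 for TRAIL+C3/C2 against C3/C2 and 1 for TRAIL+SN against SN. With normexp it became 0 for TRAIL against NT and 1 for TRAIL+SN against TRAIL+C3/C2, which was also 1 with replicates 1 and 2 and replicates 3 and 4 averaged, chosen after seeing the data. With the mean of the probes of a gene it became 2 for TRAIL. With no minimum fold change it became 6 for C3/C2, 10 for SN and 9 for TRAIL against NT, 10 for SN against C3/C2, 8 for SN against TRAIL, 6 for TRAIL+SN against TRAIL+C3/C2, 8 and 10 for the co-treatments against TRAIL, 10 for TRAIL+C3/C2 against C3/C2, 8 for TRAIL+SN against SN, and 4 and 2 for the interactions with C3/C2 and SN. These counts join both directions. They were 5 higher and 1 lower for C3/C2, 6 and 2 for SN against TRAIL, and 7 and 1 for TRAIL+C3/C2 against TRAIL. Of all 20703 genes 7297 were then higher and 5742 lower with C3/C2, 7274 and 7080 with SN, and 4212 and 2717 with TRAIL. For SN there were 4496 and 5318 against C3/C2 and 6729 and 7014 against TRAIL. TRAIL+SN gave 3298 and 4491 against TRAIL+C3/C2, 7369 and 6550 against TRAIL, and 2522 and 1626 against SN. TRAIL+C3/C2 gave 7718 and 5879 against TRAIL and 4415 and 2919 against C3/C2. The interactions gave 361 and 235 with C3/C2 and 2268 and 2526 with SN. With only the groups compared the interaction with C3/C2 had 1. TRAIL+SN against SN had 2 in that setting, and also with replicates 1 and 2 and replicates 3 and 4 averaged. Leaving out 1 array gave 0 to 1 for TRAIL and 2 to 3 for C3/C2 against NT. It gave 3 to 5 for SN against TRAIL and 2 to 3 for TRAIL+SN against SN. Over all genes the array median gave 207 calls of higher for TRAIL and 2112 for SN against TRAIL. Spike-in probes gave 141 for TRAIL+C3/C2 against C3/C2 and 50 for TRAIL+SN against SN. Normexp gave 65 for TRAIL and 70 for TRAIL+SN against TRAIL+C3/C2 (180 with the averages). The mean of the probes gave 155 for TRAIL. Only the groups compared gave 94 for the interaction with C3/C2 and 178 for TRAIL+SN against SN (148 with the averages).

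The sign turned with the array median and the authors' table for FOSL2 (-0.15) and IER3 (-0.14) in SN against TRAIL, JUNB (0.0368) and JUND (0.15) in TRAIL+SN against TRAIL+C3/C2, FOSL2 (-0.32) in TRAIL+C3/C2 against TRAIL, and JUNB (-0.0501) and IER2 (-0.0278) in the interaction with SN. With spike-in probes it turned for FOSL1 (-0.0325) and FOSL2 (-0.16) in TRAIL+C3/C2 against NT, JUNB (0.0307) and JUND (0.14) in TRAIL+SN against TRAIL+C3/C2, FOSL2 (-0.28) in TRAIL+C3/C2 against TRAIL, FOS (-0.23), JUN (-0.49), JUND (-0.44) and IER2 (-0.0837) in TRAIL+SN against SN, FOSL2 (-0.0294) in the interaction with C3/C2, and FOSL1 (-0.0364), JUNB (-0.19) and IER2 (-0.16) in that with SN. With normexp it turned for JUN in TRAIL+SN against SN (-0.0113). Leaving out 1 array, JUN ran from -0.0959 to 0.0106 and JUNB from -0.12 to 0.0028 in C3/C2 against NT, JUN from -0.0077 to 0.17 in TRAIL+SN against SN, and JUND from -0.0579 to 0.0374 in TRAIL+SN against TRAIL+C3/C2. The cause was not tested.

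Same-numbered arrays deviated together with a correlation over 0.1 in 57 of 60 pairs of arrays (median 0.2, lowest 0.0616), and 21 of 24 arrays correlated best with their own number, which is a hint from the data that numbers share something. Arrays of another number within replicates 1 and 2 or within 3 and 4 exceeded 0.1 in 43 of 60 pairs, and pairs across these in 0 of 120 (median -0.17). The group mean was subtracted from each array first, so positive values in some pairs force negative ones in others. The count of 0 is therefore no separate evidence. Since the labels do not say what a number stands for and not every same-number pair was over 0.1, the samples were not taken as paired. With the replicate block the count of members called for the interaction of TRAIL and C3/C2 went from 0 to 1, which was EGR1 (1.28, adjusted p 0.00892), and no other call changed, while with replicates 1 and 2 and replicates 3 and 4 averaged that count was 0 (EGR1 adjusted p 0.724).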
